A study of Mus musculus with 2 samples.

Results

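The 289 cells described here carried the signal of an extra chromosome 1 and an extra chromosome 14 without one of chromosome 8, and they were set against 6065 cells with chromosomes 1 and 8 raised and 14 not. Both sets came from 1 library of mouse embryonic stem cells, the second time point of a culture, in which 21387 cells met the filters. The first set made up 1.35% of them (exact Clopper-Pearson 95% interval 1.2 to 1.52%) and the second 28.4% (27.8 to 29.0%). A cell was a barcode with at least 18000 unique molecular identifiers (UMIs, 1 per captured RNA molecule), at least 1000 genes, at most 10% mitochondrial UMIs, at least 10 UMIs of Pou5f1, fewer than 5 of the fibroblast genes Col1a1 and Bgn together and fewer than 5 of Fgf5, Fgf8 and Car2 together. For chromosomes 1, 8 and 14 the UMIs of a cell were divided by its UMIs on the other 16 autosomes, and then by the median of that quotient over the 14079 such cells of the first time point. A chromosome counted as gained at a ratio of 1.3 or more, 30% above that median, and as not gained at a ratio less than 15% above it. Members of both sets were chosen by these ratios of chromosomes 1, 8 and 14, which are therefore given as a description.

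The cells were embryonic stem cells of the inbred strain C3H/HeSn-Paf/J, from 9 lines that had been mixed: 3 derived from XX embryos, 3 from XO and 3 from XY. Serum and leukaemia inhibitory factor (LIF) maintained them over irradiated mouse fibroblasts (feeders), and they were caught on the 10x Chromium platform at an early passage (time 1) and 10 passages later (time 2). Each time point is 1 library, and cells were not assigned to lines here, so a chromosome gain and the line in which it arose cannot be told apart. Neither set of cells is replicated: values below have no test between them, and their 95% intervals cover counting error only.

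Whole-chromosome gains are a common change in cultured mouse embryonic stem cells, and chromosome 8 is the gain best known for overtaking cultures. An added chromosome usually raises the RNA of most of its genes in proportion to copy number, while some genes depart from that because their own regulation overrides it. Chromosome 8 holds the metallothionein genes Mt1 and Mt2 and the pluripotency genes Zfp42 and Klf2, and chromosome 14 holds Klf5 and Bmp4.

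The median cell of the 1 and 14 set had 47139 UMIs and 2.52% mitochondrial UMIs, against 50377 and 2.28% in the 1 and 8 set. UMIs summed to 15596097 in the first and 355955757 in the second, so counting error in the comparison came mainly from the smaller set. All 8 pluripotent stem cell markers were detected in both sets, at 8701 and 7955 CPM. CPM means UMIs per 1000000 UMIs on autosomes other than 1, 8 and 14. The filters had required Pou5f1, 1 of the 8, in every cell. Markers of other cell types were low in both sets. Fibroblast markers, of which the filters had limited Col1a1 and Bgn, summed to 8.73 and 8.90 CPM, with Lum and Dcn at 0 in the 1 and 14 set. Primitive endoderm markers summed to 8.97 and 6.79, and mesendoderm markers to 9.71 and 7.05, with Cer1 at 0 in the 1 and 14 set. Trophoblast markers were at 21.1 CPM in the 1 and 14 set and 11.2 in the 1 and 8 set, with Elf5 at 0 in the former, and primed epiblast markers, 3 of which the filters had limited, at 222 and 211. With far fewer UMIs in the 1 and 14 set, a level of 0 there is not read as absence. Of the barcode sequences, 75 met the filters in both libraries, among them 2 of the 1 and 14 set and 18 of the 1 and 8 set.

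A gain of chromosome 14 without chromosome 8 was the rarer setting in which chromosome 14 was raised. Of 4873 time 2 cells with a chromosome 14 ratio of at least 1.3, 76.9% (75.7 to 78.1%) also had chromosomes 1 and 8 at 1.3 or more. A further 731 cells, 15.0% (14 to 16.0%), had chromosome 1 gained and a chromosome 8 ratio between 15% and 30% above the time 1 median, with a middle value of 1.28, just under the threshold. The 1 and 14 set made up 5.93% (5.28 to 6.63%), and cells without chromosome 1 at 1.3 the remaining 2.18%. Seen from the other side, chromosome 14 was gained in 35.6% (34.7 to 36.6%) of the 10513 cells with chromosomes 1 and 8 at 1.3 or more, and in 16.5% (14.8 to 18.4%) of the 1748 cells with chromosome 1 gained and chromosome 8 not. At time 1 the same rule found 5 cells with gains of 1 and 14 and 10 with gains of 1 and 8, of 14079.

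The median ratios of chromosomes 1, 8 and 14 were 1.65, 0.964 and 1.43 in the 1 and 14 set, and 1.66, 1.38 and 0.997 in the 1 and 8 set. Chromosome 1 thus had nearly the same height in both sets, above the 1.5 that 3 copies over 2 would give, and chromosomes 8 and 14 lay below 1.5. These ratios are relative to time 1. Time 2 cells with none of the 3 gains had medians of 1.08, 0.963 and 0.980 for chromosomes 1, 8 and 14. Those cells were chosen for ratios less than 15% above the time 1 median on all 3 chromosomes, so their medians were capped by the choice. The number of copies behind the height of chromosome 1 was not tested, and it is not read as more than 3. The median ratios of the other 16 autosomes lay between 0.95 and 1.0545 in both sets. A ratio of 1.3 or more on a further autosome was found in 6.23% (3.73 to 9.67%) of the 1 and 14 set and 6.36% (5.76 to 7.01%) of the 1 and 8 set. Near the thresholds, 34 members of the 1 and 14 set had a chromosome 8 ratio 5 to 15% above the time 1 median, and 20.6% of these had a doublet score among the highest 10% of the library. Just outside, the 73 cells with chromosome 1 gained, chromosome 8 not and a chromosome 14 ratio of 1.2 to 1.3 had a median of 94811 UMIs and 35.6% with such a score, against 4.50% in the whole 1 and 14 set. Whether the cells between the thresholds are 2 cells in 1 droplet was not tested.

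**Figure D1:**
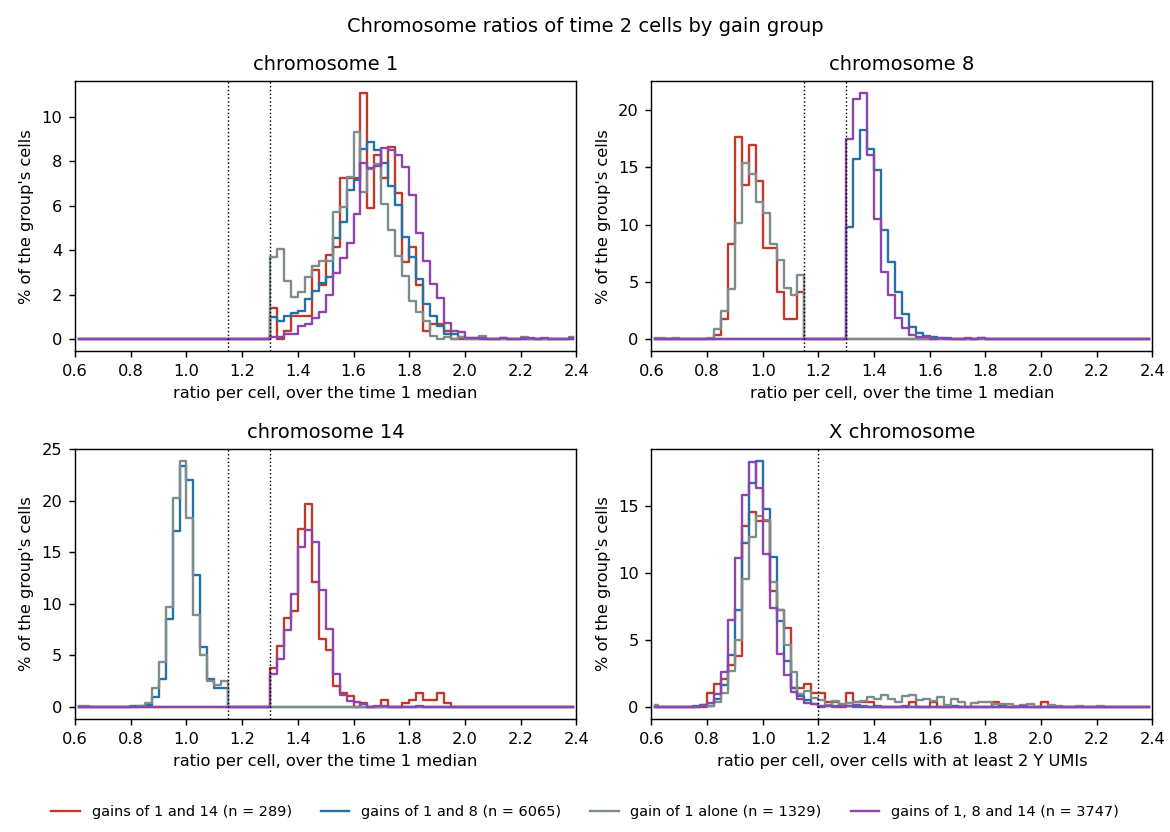
Chromosome ratio per cell (x axis; for chromosomes 1, 8 and 14 relative to the time 1 median, for X relative to time 2 cells with at least 2 Y UMIs) against the share of the group's cells in bins of 0.025 (y axis, %), for 4 gain groups of time 2; dotted lines mark the 2 thresholds, 15% and 30% above the reference, and 1.2 for X. The red line of the 289 cells with gains of 1 and 14 has a second hump at a chromosome 14 ratio of 1.7 to 1.95, which holds 18 cells.

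The chromosome 14 ratios of the 1 and 14 set fell into 2 bodies. In 271 cells the ratio had a median of 1.43 and reached at most 1.64, and in 18 cells, 6.23% of the set, it lay between 1.7 and 1.95 with a median of 1.85. The limit of 1.7 was chosen after the values were seen. Such a ratio was found in 12 of the 3747 cells with gains of 1, 8 and 14 (0.320%, 0.166 to 0.559%). The 18 cells did not have more UMIs than the rest, with medians of 42346 and 47525, none had a doublet score among the highest 10%, none had a raised X ratio and none had 2 or more Y UMIs. Over 130 measured genes of chromosome 14 their median log2 ratio to the 1 and 8 set was 0.90, and that of the remaining 271 cells 0.50, while over 2695 genes outside chromosomes 1, 8 and 14 both medians were -0.00. The 18 cells were chosen by their chromosome 14 UMIs, which fixed the direction of the first difference in advance. Scaling to autosomes other than 1, 8 and 14 draws the latter medians towards 0. These medians are therefore a description only.

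The X chromosome was at a single dose in nearly all cells of both sets. X dosage was measured as X UMIs over those of the same 16 autosomes, relative to cells of the library with at least 2 Y UMIs, and a cell at 1.2 or more was called X-high. The median ratio was 0.992 in the 1 and 14 set and 0.986 in the 1 and 8 set. X-high cells numbered 15 of 289 in the first, 5.19% (2.93 to 8.42%), and 32 of 6065 in the second, 0.528% (0.361 to 0.744%), a difference of 4.66 percentage points (2.63 to 7.86). Of the 15, 11 had ratios between 1.2 and 1.4 and 4 a ratio of 1.4 or more. With the limit at 1.4 the difference was 1.22 points, and with a gain threshold of 1.2 it was 11.0 points. Among cells with a gain of 1 alone 13.5% were X-high, and among cells with none of the 3 gains 64.8%. After each cell had been thinned to 18000 UMIs, 3.81% (1.92 to 6.71%) of the 1 and 14 set and 2.21% (1.85 to 2.61%) of the 1 and 8 set had at least 2 UMIs of the Y genes Ddx3y, Eif2s3y, Kdm5d and Uty, and with all UMIs 11.8% and 6.74%. X-high cells of time 2, taken as the background for Y UMIs, had such a thinned share of 0.479%, and 2.46% with all UMIs. The intervals of the 2 sets did not overlap for X-high cells, overlapped for the thinned share with Y UMIs, and did not for the share with all UMIs (8.29 to 16.1% and 6.13 to 7.4%). These intervals cover counting error over cells of 1 library, so their overlap is not a test between the sets. X-low cells with no Y UMI numbered 207 and 5263.

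Gene levels were compared on UMIs summed over the cells of each set. A gene was measured when it reached 50 CPM in either set, which held for 3249 genes, 2956 of them in both, 154 through the 1 and 14 set alone and 139 through the 1 and 8 set alone. The log2 ratio is that of the level plus 1 CPM in the 1 and 14 set over the 1 and 8 set. A gene is called higher at a log2 ratio of at least 0.32 and lower at one of at most -0.32, with no test behind the call. Of 217 measured genes on chromosome 8, 196 were lower (90.3%) and 1 was higher (0.461%), with a median of -0.51. Of 130 on chromosome 14, 117 were higher (90%) and 0 lower (0.0%), with a median of 0.53. The reference ratio for 3 copies against 2 is 0.58 on this scale, so both medians stood short of it. On chromosome 1, gained in both sets, 13 of 207 genes were higher (6.28%) and 3 lower (1.45%), with a median of 0.03. Of 2695 measured genes on other chromosomes, 4.34% were higher and 1.89% lower. Since the rule used chromosomes 1, 8 and 14, the counts on them describe the choice of cells.

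Dosage ran along the whole of both chromosomes. In windows of 20 Mb, summed UMIs gave log2 ratios from -0.46 to -0.56 over the 7 windows of chromosome 8. Over the 7 windows of chromosome 14 they ran from 0.30 to 0.76, with both extremes in the distal windows, which hold 5 and 2 measured genes. The 4 windows of the proximal 80 Mb, with 120 of the 130 genes, ran from 0.48 to 0.57.

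**Figure D2:**
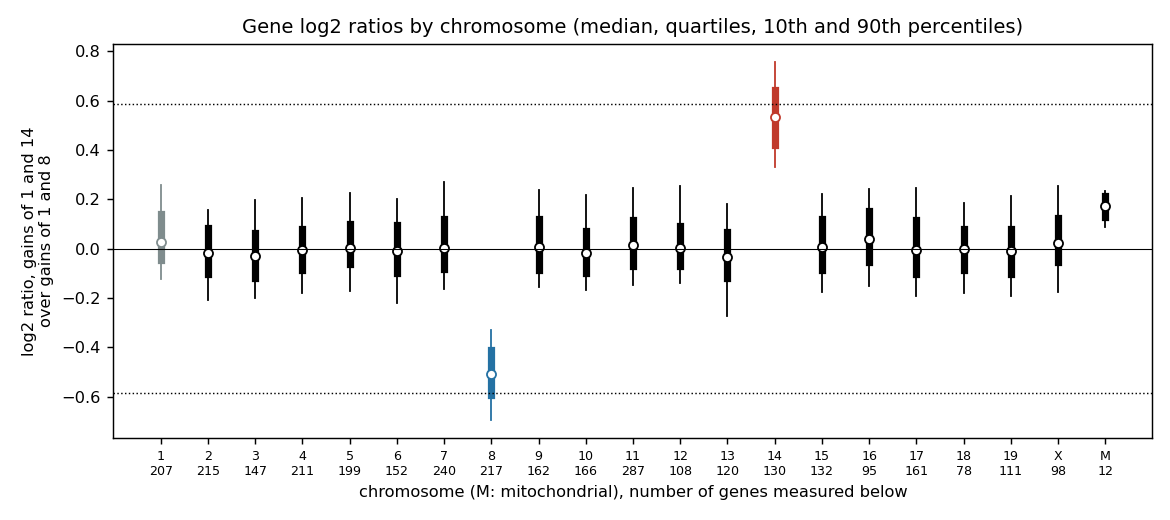
Log2 ratio of measured genes (y axis) by chromosome (x axis, with the number of genes), gains of 1 and 14 over gains of 1 and 8; circles are medians, thick bars quartiles, thin bars the 10th to 90th percentiles, and dotted lines mark 3 copies over 2 in either direction. Chromosome 14 sits at 0.53 and chromosome 8 at -0.51, and the 12 mitochondrial genes (M) at 0.17.

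On chromosome 8 the metallothioneins, which bind zinc and copper, were among the most abundant genes to differ. Mt1 (GRCm38 chr8:94179082-94180327) was at 979 CPM (961 to 996) in the 1 and 14 set and 1636 (1631 to 1641) in the 1 and 8 set, a log2 ratio of -0.74 that came to -1.23 with a gain threshold of 1.4. Mt2 (chr8:94172664-94173568) was at 499 and 881, a log2 ratio of -0.82, and -1.2 with that threshold. Cells with a gain of 1 alone lay between, at 1239 for Mt1 and 651 for Mt2. Cells with gains of 1, 8 and 14 had 950 and 513, close to the 1 and 14 set although chromosome 8 was gained in them. The median cell had 711 CPM of Mt1 in the 1 and 14 set and 1410 in the 1 and 8 set. At the 10th percentile Mt1 was at 171 and 475, and at the 90th at 2258 and 3083, so the bulk of the cells differed and not a few of them.

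The 5 chromosome 8 genes with the largest deficits were Tubb3, a neuronal beta tubulin, at -0.98, the zinc finger gene Zfp1 at -0.95, Arl2bp at -0.86, 2810004N23Rik at -0.82 and Mt2. Of these, Tubb3, Zfp1 and Arl2bp reached 50 CPM in the 1 and 8 set alone, which favoured a large deficit. Gsr, the glutathione reductase, was at 124 and 209 CPM (-0.75), and Hmox1, haem oxygenase 1, at 91.5 and 128 (-0.48), the latter within the limit at -0.27 with a gain threshold of 1.2. The pluripotency gene Zfp42 was at 136 and 181 CPM (-0.41), and the cadherin gene Cdh1 at 66.2 and 89.9 (-0.43). Cells with a gain of 1 alone had levels close to the 1 and 14 set for both, 118 and 65.8. A few measured genes of the chromosome had ratios near or above 0. Cyba, a subunit of the NADPH oxidase, was at 61.3 against 47.4 CPM, a log2 ratio of 0.36 that came to 0.02 with a gain threshold of 1.4. The Wnt antagonist Sfrp1 was at 57.7 against 46.4 (0.31), and at 0.64 with that threshold. Both reached the 50 CPM minimum in the 1 and 14 set alone, so that the filter favoured a ratio against the dose. Junb was at 0.13, the autophagy gene Gabarapl2 at -0.04 and Klf2, a factor of naive pluripotency, at -0.11. Gabarapl2 reversed its sign, to 0.10, with a gain threshold of 1.2.

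Among the 130 measured genes of chromosome 14 the largest excess over the 1 and 8 set was in Ephx2 (chr14:66084374-66124500), the soluble epoxide hydrolase, at 61.5 CPM (57.2 to 66.1) against 23.7 (23.1 to 24.3), a log2 ratio of 1.34. Cells with gains of 1, 8 and 14 had 22.9 CPM of Ephx2, like the 1 and 8 set, and cells with a gain of 1 alone 40.8. Rnf17, a tudor-domain gene of the germ line, followed at 116, 58.0, 59.8 and 78.4 CPM in the order 1 and 14, 1 and 8, all 3, and 1 alone. Lgals3, which encodes galectin 3, was at 63.5, 32.1, 34.1 and 36.0. Ephx2 and Lgals3 reached the 50 CPM minimum in the 1 and 14 set alone, which favoured a large excess, and Rnf17 in both sets. The 3 genes were less than 0.32 higher on the log2 scale in cells with all 3 gains than in the 1 and 8 set.

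The autophagy gene Atg14, also among the largest differences of the chromosome (0.92), was high with all 3 gains too, at 70.6 CPM against 43.0 in the 1 and 8 set, and passed the minimum through the 1 and 14 set alone. Klf5, a Kruppel-like factor that sustains naive pluripotency, was at 346 CPM in the 1 and 14 set, 316 with all 3 gains, 210 in the 1 and 8 set and 231 with a gain of 1 alone. Both groups with the extra chromosome 14 thus had the highest Klf5 levels, and the log2 ratio of the 1 and 14 set to the 1 and 8 set was 0.72. The mitophagy receptor gene Bnip3l was at 262 and 156 (0.74), and the proteasome subunit gene Psmb5 at 916 and 648 (0.50). At the other end, Adk, the adenosine kinase, was at 118 against 119 CPM (-0.00), Mdp1 at 0.14 and Hnrnpc, an RNA-binding protein of the nucleus, at 0.15. Gm10076 (-0.06) and AC160336.1 (-0.05, and 0.08 with a gain threshold of 1.4) may share reads with near-identical copies elsewhere and are uncertain.

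Outside chromosomes 1, 8 and 14, 117 of 2695 measured genes (4.34%) were higher in the 1 and 14 set and 51 (1.89%) lower, with a median of -0.00. Scaling with edgeR's TMM factors instead turned this split to 39 higher and 96 lower of 2237 measured genes, so the excess of higher genes depends on the scaling. Of the 117 higher genes 49 reached 50 CPM in the 1 and 14 set alone, and of the 51 lower genes 14 in the 1 and 8 set alone, so that the filter favoured a difference in them. The 2 sets were close: the median absolute log2 ratio over these genes was 0.09, where counting error alone has a median standard error of 0.04. The same median was 0.07 between the 1 and 14 set and cells with a gain of 1 alone, 0.10 against cells with all 3 gains and 0.14 against cells with no gain. By the same measure the 1 and 8 set lay 0.06 from cells with a gain of 1 alone, with a smaller median counting error of 0.02, so the distances are not compared.

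Id2 (chr12:25093799-25097140) headed the higher genes. It encodes a helix-loop-helix inhibitor of differentiation that responds to bone morphogenetic protein (BMP) signals. Its level was 115 CPM (109 to 121) in the 1 and 14 set and 42.7 (41.9 to 43.5) in the 1 and 8 set, a log2 ratio of 1.41, and lay between 1.17 and 1.49 over the alternatives tried. Cells with a gain of 1 alone had 95.2 CPM and cells with no gain 113, while cells with all 3 gains had 40.0. The level was thus low in both groups with an extra chromosome 8 and high in the 3 without. The median cell had 41.3 CPM of Id2 in the 1 and 14 set and 17.5 in the 1 and 8 set, with 90th percentiles of 287 and 123, and the 10 cells with most Id2 held 24.9% of the UMIs of the 1 and 14 set.

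**Figure D3:**
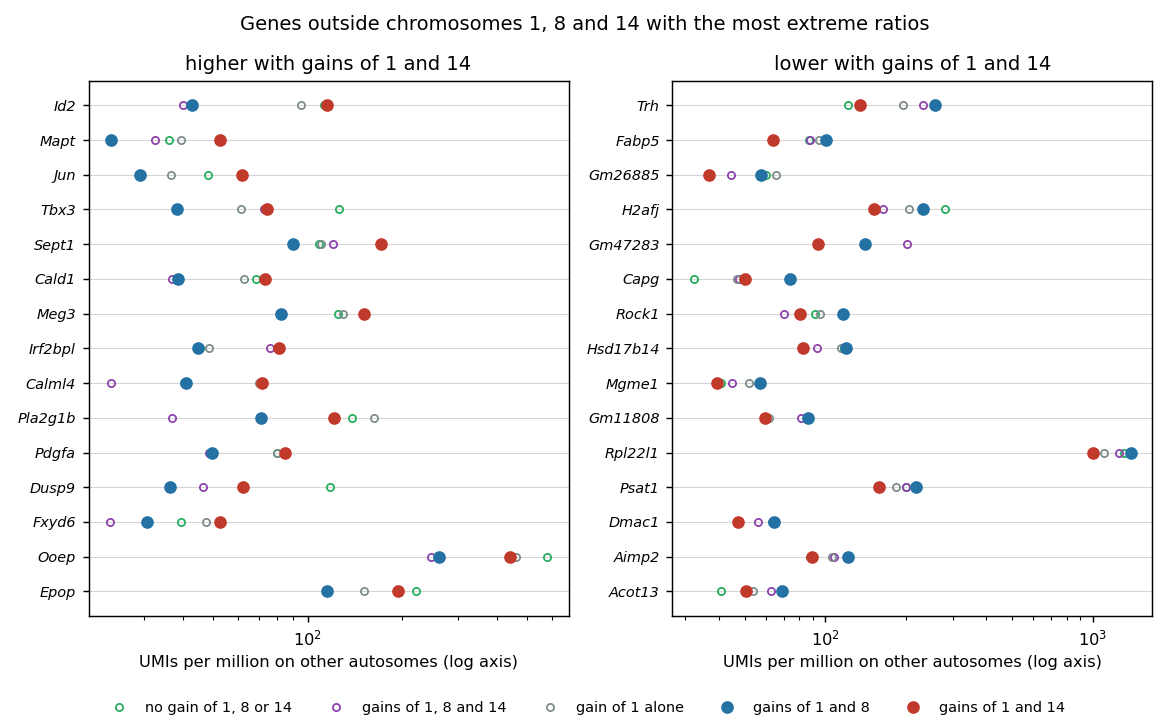
Levels (x axis, CPM as defined above, log axis) of the 15 genes with the highest (left) and the 15 with the lowest (right) log2 ratios outside chromosomes 1, 8 and 14, in 5 gain groups of time 2; each point is a sum over the group's cells. In the row of Id2 the points of both groups with chromosome 8 gained lie near 40.0 to 42.7 and those of the other groups at 95.2 to 115.

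Several of the next genes shared that order. Jun (chr4:95049034-95052222), a component of the AP-1 transcription factor, was at 61.7 CPM in the 1 and 14 set, 29.3 in the 1 and 8 set and 29.4 with all 3 gains (log2 ratio 1.048). Ooep, a gene of the maternal complex of the oocyte that is also active in stem cells, was at 440 against 262 and 248 CPM (0.74). Pla2g1b, a secreted phospholipase, was at 121 against 71.1 and 36.9 (0.76), and Mapt, which encodes tau, at 52.5 against 23.6 and 32.6 (1.12). Id2, Jun and Mapt reached 50 CPM in the 1 and 14 set alone, which favoured a high ratio, and Ooep and Pla2g1b in both sets. Of the 117 higher genes, 61 (52.1%) had both groups with chromosome 8 gained below all 3 groups without, an order that 15.3% of the 2695 genes had. The order shares the 2 sets with the choice of the 117, so a higher share follows in part from the choice. Only genes with a ratio above 0 can have it, and 412 of those 1346 did. A large ratio also makes the order easier to meet, so the share of the 117 is not read as a result. Of the 51 lower genes 21 (41.2%) had both groups with chromosome 8 above the others, against 21.8% of all genes. Only genes with a ratio below 0 can have that order, and 588 of those 1349 did, so no excess is read from the share.

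The order by chromosome 14 is tied to the choice of genes in the same way. For 25 of the 117 higher genes (21.4%) both groups with chromosome 14 gained stood above the 3 without, against 17.9% of all 2695 genes. Only genes with a ratio above 0 can have that order, and 482 of those 1346 did. For 11 of the 51 lower genes (21.6%) both groups stood below, against 10.4% of all genes. Only genes with a ratio below 0 can have this order, and 281 of those 1349 did. These shares are not read as a result. Meg3 (chr12:109541001-109571726), the long noncoding RNA of the imprinted Dlk1-Dio3 region, was at 151 CPM in the 1 and 14 set and 151 with all 3 gains, against 82.4 in the 1 and 8 set, 130 with a gain of 1 alone and 125 with no gain (log2 ratio 0.86). The 10 cells with most Meg3 held 30.1% of its UMIs in the 1 and 14 set, and the median cells were close, at 30.8 and 24.1 CPM. Irf2bpl was at 81.1 and 75.8 CPM in the groups with chromosome 14 gained and at 44.9, 48.3 and 45.3 in those without (0.84). Irf2bpl passed the 50 CPM minimum through the 1 and 14 set alone, which favoured a high ratio. Sept1, which encodes a septin of the cytoskeleton, was at 172 and 120 CPM with chromosome 14 gained, and at 89.8 in the 1 and 8 set, 110 with a gain of 1 alone and 109 with no gain (0.93).

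Of the 7 other genes among the 15 highest, Tbx3 (0.93) is a gene of naive pluripotency, and the remaining 6 ranged from 0.74 to 0.90. Cald1, Pdgfa, Dusp9 and Fxyd6 also had both groups with chromosome 8 gained below the 3 without, while Tbx3, Epop and Calml4 did not. Cald1, which encodes the actin-binding protein caldesmon, was at 73.0 against 38.8 CPM (0.90), and Pdgfa, a platelet-derived growth factor ligand, at 84.9 against 49.7 (0.76). Dusp9 (chrX:73639419-73643514), an X-linked phosphatase that dampens MAPK signalling, was at 62.3 in the 1 and 14 set, 36.5 in the 1 and 8 set, 61.7 with a gain of 1 alone, 46.5 with all 3 gains and 118 with no gain (0.76). X-high cells were also more frequent in the 1 and 14 set, and among X-low cells with no Y UMI the ratio of Dusp9 was 0.61. Epop, a protein bound to the Polycomb repressive complex, was at 193 against 115 CPM (0.74). Calml4 (0.79, and 0.35 with a gain threshold of 1.4) and Fxyd6 (0.75) were lowest in cells with all 3 gains, at 23.6 and 23.5. Cald1, Pdgfa, Dusp9, Calml4 and Fxyd6 reached 50 CPM in the 1 and 14 set alone, which favoured a high ratio, and Epop in both sets.

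Among genes of naive pluripotency, 3 of the 7 measured outside the 3 chromosomes were higher, beside 4.34% of all 2695 genes, and 0 lower. Of the 3, Tbx3 reached 50 CPM in the 1 and 14 set alone, and Klf4 and Fgf4 in both sets. The list was chosen with earlier results of these data known, so its count is not read as a result. Tbx3 (chr5:119670669-119684724), a T-box factor of the naive state, was at 74.2 CPM in the 1 and 14 set, 38.3 in the 1 and 8 set, 61.4 with a gain of 1 alone, 72.7 with all 3 gains and 126 with no gain (log2 ratio 0.93). Klf4 (chr4:55527143-55532466), one of the reprogramming factors, had the levels 173, 105, 149, 181 and 270 in the same order of groups (0.71). For both genes the 1 and 8 set had the lowest level of the 5 groups and cells with no gain the highest. Fgf4, the growth factor that drives exit from the naive state, was at 83.1 and 59.1 CPM (0.48). Nanog (0.23), Esrrb (0.25) and Dppa3 (-0.26) lay within the limit of 0.32, although Esrrb and Dppa3 passed it with a gain threshold of 1.4, at 0.35 and -0.57. The naive gene Tfcp2l1, which lies on chromosome 1 and so was gained in both sets, was at 139 against 84.2 CPM (0.72), the largest difference on that chromosome. Of the 8 genes of core pluripotency 0 passed the limit in either direction, with Pou5f1 at 0.16, Sox2 at 0.20 and Dppa4 at -0.20.

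Several measured genes of Nodal and BMP signalling lay near the 50 CPM minimum. Nodal, a ligand of the TGF-beta family, was at 58.2 against 45.3 CPM (0.36), its inhibitory SMAD gene Smad7 at 58.3 against 45.8 (0.34) and the SMAD corepressor gene Skil at 55.6 against 41.4 (0.42). All 3 reached 50 CPM in the 1 and 14 set alone, so that the filter itself favoured a higher level there, and their count and median are not read as a result. On chromosome 1 the feedback inhibitor Lefty1 was at 219 against 183 CPM (0.26) and Lefty2 at 98.0 against 124 (-0.34). Both depended on the gain threshold: Lefty2 came to -0.08 at 1.2, and Lefty1 to 0.58 at 1.4. Id3, above 50 CPM in both sets, was higher at 171 against 129 (0.41), while Id1, at 50.5 against 43.8 (0.20, and 0.60 with a gain threshold of 1.4), and Id2 passed the minimum through the 1 and 14 set alone. In the LIF pathway the kinase gene Pim1 was at 204 against 160 CPM (0.35) and Pim3 at 149 against 120 (0.31), the latter within the limit. Nodal, Smad7, Skil, Id3 and Pim1 each kept their sign but came within the limit under at least 1 alternative, with lowest values of 0.27, 0.22, 0.25, 0.28 and 0.23.

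Among genes below the limit of 50 CPM, 4 of those singled out after their values were seen are given here. Dusp6, Ccnd2, Rian and Bmpr1a were picked in the same way and followed over the alternatives, with log2 ratios of 0.58, 0.93, 0.89 and 0.70. Egr1, an immediate early gene of MAPK signalling, was at 49.7 CPM (45.8 to 53.8) in the 1 and 14 set and 20.6 (20 to 21.1) in the 1 and 8 set. Spry2, a feedback inhibitor of the same pathway that lies on chromosome 14, was at 44.7 and 15.0, and its paralogue Spry4 on chromosome 18 at 24.0 and 12.8. Bmp4, a BMP ligand gene on chromosome 14, was at 22.3 and 7.91 CPM. With all 3 gains Egr1 was at 26.1, Spry2 at 32.2, Spry4 at 18.6 and Bmp4 at 17.7. Without the 18 cells with a chromosome 14 ratio of at least 1.7 the log2 ratio of Bmp4 fell from 1.38 to 0.97. Of the 9 listed MAPK feedback genes 2 were measured, and 0 of them passed the limit.

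Of 6 measured genes of the unfolded protein and integrated stress responses 2 were lower, beside 1.89% of all 2695 genes, and 0 higher, with a median of -0.22. This list too was chosen with earlier results of these data known, so its count is not read as a result. Psat1 (chr19:15904678-15947337), an enzyme of serine synthesis, was at 159 against 218 CPM (-0.46), and Slc3a2, a subunit of amino acid transporters, at 199 against 250 (-0.33), which came within the limit at -0.27 with a gain threshold of 1.2. The asparagine synthetase gene Asns was at 160 and 192 (-0.26) and Atf4, the factor that drives these genes, at 175 and 198 (-0.17). Hspa5, the main chaperone of the endoplasmic reticulum, leaned the other way, at 462 against 378 CPM (0.29). Cells with a gain of 1 alone lay between the 2 sets for Psat1, Slc3a2, Asns, Atf4 and Hspa5.

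The lowest ratio outside the 3 chromosomes was that of Trh (chr6:92242061-92244650), which encodes the precursor of thyrotropin-releasing hormone. It was at 135 CPM (129 to 142) in the 1 and 14 set and 257 (255 to 259) in the 1 and 8 set, a log2 ratio of -0.92, and at 195 with a gain of 1 alone, 233 with all 3 gains and 122 with no gain. Its ratio shrank to -0.30 with a gain threshold of 1.4. Fabp5, a fatty acid binding protein, was at 64.0 against 101 CPM (-0.64), and H2afj, a variant histone of the H2A family, at 152 against 233 (-0.61). Rpl22l1, the paralogue of ribosomal protein Rpl22, was the most abundant of the 15 lowest genes, at 1005 against 1388 CPM (-0.47), and was lowest in the 1 and 14 set of all 5 groups. Gm26885 (-0.63, and -0.34 with a gain threshold of 1.2) had 46.7% of its UMIs in 10 cells of the 1 and 14 set. Gm26885 reached 50 CPM in the 1 and 8 set alone, which favoured a low ratio. Gm47283, which the annotation places on the Y chromosome, was at 93.8 and 141 CPM (-0.58), and at -0.49 among X-low cells with no Y UMI, so its reads did not follow the Y genes. The other 8 of the 15 lowest genes ranged from -0.44 (Acot13) to -0.55 (Capg, a capping protein of actin filaments).

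**Figure D4:**
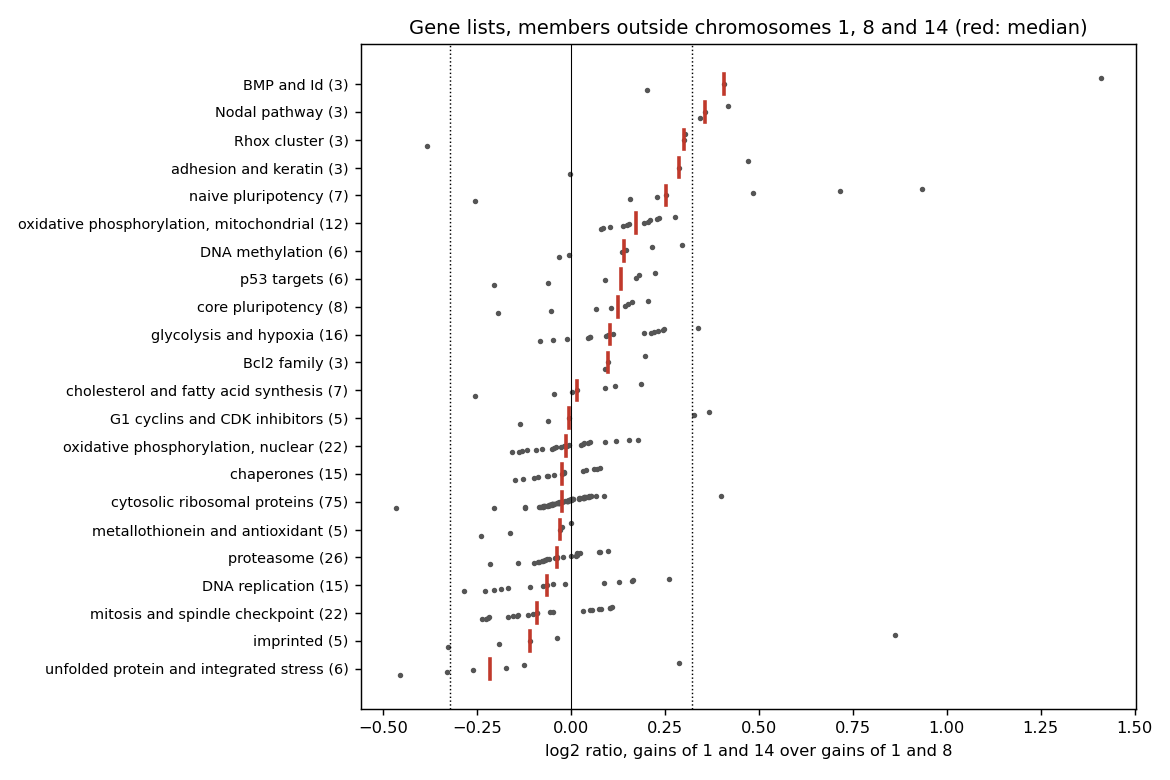
Log2 ratio of each measured list member outside chromosomes 1, 8 and 14 (x axis; gains of 1 and 14 over gains of 1 and 8) by gene list (y axis, number of members in brackets, lists with at least 3); red bars are medians and dotted lines the call limit of 0.32 in either direction. The 3 Nodal genes and 2 of the 3 BMP and Id genes passed the minimum through the 1 and 14 set alone, and the large lists of proteasome, chaperone and ribosomal protein genes lie at -0.04, -0.02 and -0.03.

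Large lists of basic cell functions had medians near 0. None of 26 proteasome genes, 15 chaperone genes and 22 nuclear genes of oxidative phosphorylation outside the 3 chromosomes passed the limit, where 4.34% of all 2695 genes were higher and 1.89% lower, and the medians were -0.04, -0.02 and -0.01. Members of these complexes on the unequal chromosomes did differ. The proteasome gene Psmd7 on chromosome 8 was at -0.53 and Psmb5 on chromosome 14 at 0.50, beside a median of -0.04 for the members elsewhere. The respiratory gene Cox4i1 on chromosome 8 was at -0.40. The 12 measured mitochondrial genes ranged from 0.08 (mt-Atp6) to 0.28 (mt-Nd2) with a median of 0.17, beside a mitochondrial share of 2.52% in the median cell of the 1 and 14 set and 2.28% in that of the 1 and 8 set. Whether RNA quality had a part in this was not tested.

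The lists of cell cycle genes had medians near or below 0. Of 5 measured G1 cyclins and inhibitors of cyclin-dependent kinases 2 were higher, beside 4.34% of all 2695 genes, and the median was -0.00. The 2 were the G1 cyclin genes Ccnd1 (283 against 225 CPM, 0.33) and Ccnd3 (258 against 200, 0.37). Their count is not read as a result, as the list was chosen with earlier results of these data known. Of 22 genes of mitosis and the spindle checkpoint 0 passed the limit and the median was -0.09, with Aurka at -0.24, Ccna2 at -0.23 and Plk1 at -0.22. DNA replication genes had a median of -0.06 over 15 members. Under TMM scaling Ccnd1 and Ccnd3 came within the limit, at 0.26 and 0.30.

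Of 16 glycolysis genes, Slc2a3, a glucose transporter, was the 1 called higher, a share near the 4.34% of all 2695 genes, at 273 against 215 CPM (0.34), and came within the limit under TMM scaling, at 0.27. The median over the 16 was 0.10, with Tpi1 at 0.25 and Pfkl at 0.24. Among 3 adhesion genes outside the 3 chromosomes the laminin receptor subunit Itga6 was higher, at 62.8 against 45.0 CPM (0.47), having passed the minimum through the 1 and 14 set alone. Imprinted genes did not share a direction: beside Meg3, the antisense RNA Kcnq1ot1 was at 123 against 155 CPM (-0.33, and -0.12 with a gain threshold of 1.2), and it was highest, at 245, in cells with all 3 gains. The X-linked Rhox5, a homeobox gene, was at 85.9 CPM in the 1 and 14 set and 112 in the 1 and 8 set (-0.38), far below the 336 of cells with a gain of 1 alone and the 464 of cells with no gain. Its sign turned with a gain threshold of 1.2, at 0.16. Its neighbours Rhox6 and Rhox9 were both at 0.30, and at a threshold of 1.4 the values of Rhox5, Rhox6 and Rhox9 were -0.88, -0.21 and -0.18, so the directions within the cluster depended on the threshold.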

How the data were processed

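Per the submitters' processing notes, base calls were made with bcl2fastq 2.20.0.422 and UMIs were counted with Cell Ranger 6.1.2 against mm10 (GRCm38). The authors deposited whole-number counts of UMIs per gene and barcode, not normalised, in 1 matrix per time point, with 145288 barcodes at time 1 and 52242 at time 2. UMI totals were 1735810403 and 1843588321, and 26345 and 28359 barcodes reached 18000 UMIs. Of 32285 genes, 32235 matched GENCODE M21 by identifier, which gave chromosomes and coordinates.

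Gene levels are UMIs summed over the cells of a group, per 1000000 UMIs on autosomes other than 1, 8 and 14 (CPM), compared as log2 of the level plus 1, with a minimum of 50 CPM in either group and a limit of 0.32 on the log2 ratio in either direction. Summed counts have exact Poisson and shares exact Clopper-Pearson 95% intervals, and the difference of shares a Newcombe interval, for counting error only. UMIs are molecules, but cells of 1 library are not replicates, so no test was made. Shares of cells with Y UMIs used cells thinned to 18000 UMIs. Doublets were kept: Scrublet, run per library in scanpy 1.11.5, marked 0 barcodes at its automatic threshold, so 1 alternative removed the 10% with the highest scores. Other alternatives changed the thresholds, depth, sex chromosome class, genes in the ratios, scaling, pseudocount and minimum. Genes named are the 15 highest and 15 lowest ratios outside chromosomes 1, 8 and 14, on chromosomes 8 and 14 the 5 largest and the 5 smallest or opposite, and up to 6 members of each gene list. A gene that this rule names is not reported here. Genes singled out otherwise are said to be so, and the chromosome 1 and chromosome 14 genes outside that rule belong to the lists. The members and the lists were chosen with earlier results of these data known. The methods were tested on simulated data. R 4.3.3 with edgeR 4.0.16 gave the TMM factors. Everything else used pandas 2.3.3, numpy 2.4.6 and scipy 1.17.1 under Python 3.11.15.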

Additional observations from a re-analysis of the deposited data

How the results depend on the processing

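Chromosome 14 stayed above 0 and chromosome 8 below 0 under all alternatives run. The choice of cells by these chromosomes fixed both signs in advance. With a gain threshold of 1.2 the median log2 ratios of chromosomes 14 and 8 were 0.46 and -0.44, 28 other genes were lower, the X-high difference was 11.0 points, 1 list median lay at -0.1 or less instead of 2, and Rhox5 turned to 0.16. With a threshold of 1.4 the medians were 0.57 and -0.55, 2291 cells had gains of 1 and 8 and 83 other genes were lower, while the imprinted median turned to 0.011 and the Rhox median to -0.21. With the limit on the chromosome not gained at 5% above the time 1 median the medians were 0.56 and -0.55. Without the highest doublet scores chromosome 8 was at -0.52. From 30000 UMIs up chromosome 14 was at 0.54 and 1 list at -0.1 or less. Leaving ribosomal protein genes and abundant genes out of the ratios put chromosome 14 at 0.55, and weighting cells equally gave 0.55 and -0.53. Scaled to all UMIs, 77 of 2239 other genes were higher, chromosome 8 was at -0.52 and 1 list at -0.1 or less. TMM factors gave 39 genes higher and 96 lower of 2237, medians of 0.46 and -0.59, and 3 lists at 0.1 or more instead of 10 with 5 at -0.1 or less. With a pseudocount of 5 the medians were 0.52 and -0.50. A minimum of 20 CPM gave 323 genes higher and 109 lower of 4742, medians of 0.56 and -0.50 and 1 list at -0.1 or less. With no minimum these were 1600 and 688 of 20628, 0.20, -0.20 and 1, and the imprinted median turned to 0.23. At 1.5-fold 28 genes were higher and 4 lower. With X-high at 1.4 the X-high difference was 1.22 points. The cause of these shifts was not tested. For the genes followed, 2230 of 2512 values over all alternatives lay within the counting interval of the reported one. That number includes 157 values with the 20 CPM minimum and 157 with no minimum, which cannot change a gene's ratio. The other 282 lay outside the interval, 5 of them with the other sign. These were Rhox5 and Gabarapl2 (0.10) at a threshold of 1.2, and Rhox6 (-0.21), Rhox9 (-0.18) and AC160336.1 (0.08) at 1.4. In 2 alternatives chosen after seeing the data, leaving out barcodes found in both libraries moved no gene or list beyond that interval, and leaving out cells with a chromosome 14 ratio of at least 1.7 put the chromosome 14 median at 0.50 and 1 list at -0.1 or less. With X-low cells without Y UMIs, 207 against 5263 cells, 106 genes were higher and 57 lower. The 289 cells with gains of 1 and 14 limit precision. No paired analysis was possible because each time point is 1 library and both sets of cells come from the same one.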

Other observations

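Genes of the 2-cell-like state, a rare state of embryonic stem cells that resembles the early embryo, were concentrated in 1 cell of the 1 and 14 set. The 289 cells with gains of 1 and 14 held 80 UMIs of the 8 listed genes, and 75 of these were in 1 cell. The cell with most held 46 of 240 such UMIs in the 1 and 8 set and 9 of 58 with a gain of 1 alone. With all 3 gains the top cell held 15 of 78, and with no gain 122 of 523. At least 10 such UMIs were found in 1 of 289 cells (0.346%, exact 95% interval 0.00876 to 1.91%), in 5 of 6065 cells with gains of 1 and 8 (0.0824%, 0.0268 to 0.192%), in 0 of 1329 cells with a gain of 1 alone (0 to 0.277%), in 1 of 3747 cells with all 3 gains (0.0267%, 0.000676 to 0.149%) and in 7 of 1812 cells with no gain (0.386%, 0.155 to 0.794%). None of the 8 genes reached 50 CPM in the sets compared, and the interval of the cells with gains of 1 and 14 overlaps that of each other group. The intervals of cells with all 3 gains and cells with no gain do not overlap, but all of them cover counting error only and are not a test.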
